A study of Mus musculus with 18 samples.

Results

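Kidneys of IKKβ∆Tub mice at 2 days after ischemia-reperfusion (I/R) injury were compared with kidneys of IKKβ∆Tub mice at baseline, before injury. The comparison holds every library that the labels assign to these groups, 3 against 3, which is 6 of the 18 mRNA libraries of the series, and it covers all genes. IKKβ∆Tub mice carry a floxed Ikbkb gene (IKKβ fl/fl) together with the Pax8-rt-TA and LC1Cre transgenes, so that doxycycline starts recombination in cells that use the Pax8 promoter, which is active along the tubule. Other kidney cells keep Ikbkb. The control strain of the series is IKKβ fl/fl without the Cre transgenes, and both strains received doxycycline in the drinking water from an age of 6 weeks, for 2 weeks, followed by 1 week without it. For the 2-day group the left renal pedicle was clamped and then reopened. Each of the 6 libraries was made from RNA pooled from 2 mice, so a replicate is a pool. The p-values rest on a spread estimated over all 18 libraries of the series, some of which the library key lists as single animals.

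IKKβ is a kinase of the complex that releases NF-κB, the family of transcription factors that switches on many genes of inflammation and survival. In I/R injury the blood supply of the kidney is cut and restored, which strikes hardest at the proximal tubule, the segment that takes back most of the filtered water and solutes and burns fatty acids to do so. Surviving tubule cells are known to lose their specialised functions for a time, express injury proteins and divide, while leukocytes enter the tissue and fibroblasts lay down matrix.

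The value of a gene in a library is its number of reads relative to the 90th percentile of all genes in that library, called its mRNA level below. A level of 1 thus equals the count of the gene at the 90th percentile. The levels are not divided by transcript length, so they are compared between libraries and never between genes. Values per library are given in the order replicate 1, 2 and 3. Fold changes are 2 days against baseline on the log2(level + 0.005) scale, with the standard error (SE) and the Benjamini-Hochberg adjusted p from limma. "Rose" and "fell" are used for genes with an adjusted p under 0.05.

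The baseline libraries differed from the 2-day libraries in more than injury. They held 26285452, 66317182 and 60441439 reads, against 12306138, 23850455 and 14005238 at 2 days, and were sequenced in another batch from another animal series. Among the libraries compared here each batch holds a single time, so batch, depth and animal series cannot be told apart from injury. Sex differed as well. Baseline replicate 1 had an Xist level of 4.77 and no Y-linked reads, and 2-day replicate 3 had an Xist level of 1.53 beside a summed Y-linked level of 0.544, while Xist was between 0.000512 and 0.0104 in the other libraries. Counts that led a statement were therefore repeated without these 2 libraries.

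Ikbkb went against the label of the 2-day libraries. Its mRNA level was 0.551, 0.426 and 0.376 at baseline and 0.856, 0.846 and 0.986 at 2 days. All 2-day libraries lay above all baseline libraries, by 1.00 on the log2 scale (SE 0.17, adjusted p = 0.000195, limma), and they lay above the 0.669 to 0.844 of IKKβ∆Tub at 14 days. Control libraries had Ikbkb levels of 0.765, 0.736 and 0.861 at baseline and 0.829, 0.855 and 1.29 at 2 days. The 2-day levels of the strains overlapped, so Ikbkb does not tell the strains apart at 2 days. Reads of every exon and of every kidney cell type were counted, so the measure is not specific to the deleted exon. Vmn1r32, a vomeronasal receptor gene without reads in the control libraries at baseline and 14 days, had levels of 0.0473, 0.0581 and 0.0846 at baseline and 0.0177, 0.0164 and 0.0160 at 2 days. The control libraries at 2 days had 0.0156, 0.0234 and 0.00177, from 21, 31 and 3 reads, so at 2 days this gene does not tell the strains apart. The 2-day libraries are written of as libraries labelled IKKβ∆Tub, a wording that applies to every 2-day value below. Kidney markers were present throughout. Umod, the uromodulin of the thick ascending limb, lay between 31.1 and 50.5 in all 6 libraries, and the adrenal enzyme gene Cyp11b1 was at 0 in each.

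**Figure D1:**
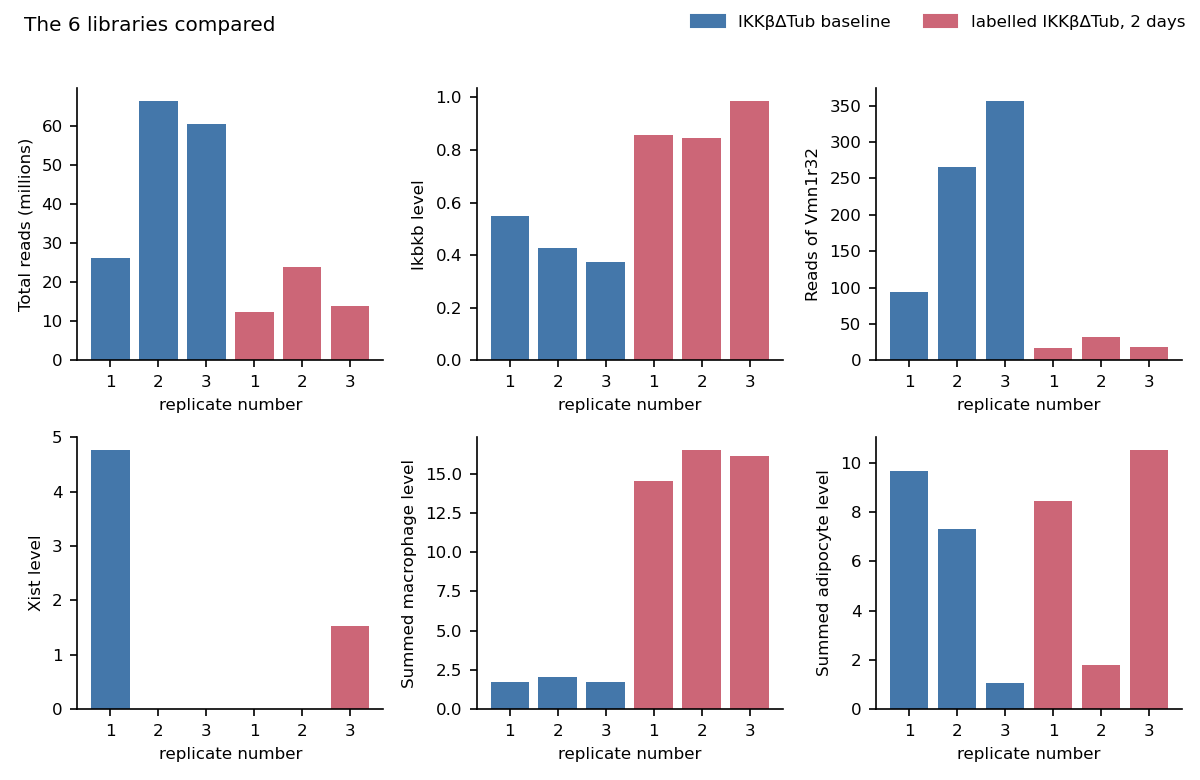
The 6 libraries compared, in bars from 0, with the replicate number on each horizontal axis and blue for baseline and red for 2 days. The panels give total reads, the Ikbkb level, the reads of Vmn1r32, the Xist level and the summed levels of the macrophage and adipocyte genes. The 2-day libraries hold fewer reads of Vmn1r32 (17 to 32 against 94 to 356), more Ikbkb and a summed macrophage level of 14.6 to 16.5 against 1.72 to 2.07.

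Of the 29307 genes listed, 16342 were tested, and 5780 of them rose (35.4%) while 2428 fell (14.9%), together 50.2%. Past a fold of 2, 3096 rose (18.9%) and 1124 fell (6.88%). The levels of the groups did not overlap in 56.3% of all genes tested (higher at 2 days in 39.6% and lower in 16.7%) and in 93.2% of the changed genes. The median gene moved by 0.25 on the log2 scale. After rescaling by median ratios, which sets that median near 0 (-0.03), 3930 rose (24%) and 4073 fell (24.9%), and no gene passed in opposite directions under the scalings. Calls on small rises and small falls therefore depend on the scaling, and a list is read below against these shares and against the shift of 0.25. Against the stricter null of a 2-fold change, 1035 genes rose (6.33%) and 175 fell (1.07%). Without the 2 libraries that hold Xist, 4832 rose and 1691 fell, of which 4527 and 1504 were among the genes counted above. With edgeR on the reads 3921 rose and 4052 fell.

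Among genes without overlap and with a mean level of at least 0.1 in the higher group, the 8 with the largest rises were Havcr1, Col1a1, Col3a1, Top2a, Mki67, Birc5, Cdk1 and Hmmr, which are a tubular injury gene, fibrillar collagens and genes of mitosis. The 8 with the largest falls were Cyp4a14, Serpina1d, Slc22a7, Ceacam2, Mettl7a2, Slc38a3, Hpd and Slc22a19. Several of them serve the metabolism and transport of the proximal tubule. Ceacam2 and Mettl7a2 share sequence with other genes, and the part of the batch in their falls was not tested. Hpd, an enzyme of tyrosine breakdown, went from 1.86, 4.41 and 3.92 to 0.0292, 0.0148 and 0.107. Serpina1d, a protease inhibitor gene that shares sequence with its relatives, went from 0.680, 1.60 and 1.96 to 0.00312, 0.00102 and 0.00178, where 2 or 3 reads were left in each library and no fold is given.

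Genes that share sequence or exons with other genes had other shares of calls than the rest, which is given without a test. Of 349 genes with exons overlapped by another gene of the same strand, 170 rose (48.7%) and 25 fell (7.16%), at a median log2 fold change of 0.62. Of 685 genes that share sequence with another gene but are not among those 349, 170 rose (24.8%) and 168 fell (24.5%), at a median of 0.01. The 15276 remaining genes had a median of 0.26. Nme2, a nucleoside diphosphate kinase gene, had levels of 0.00806, 0.0205 and 0.0264 at baseline and 0.752, 0.714 and 0.698 at 2 days. Sumo2, a ubiquitin-like modifier gene, had 0.600, 0.537 and 0.497 and then 0.0760, 0.108 and 0.0782. In both the libraries of a batch lay close together and the batches far apart, and these genes were chosen after their values were seen. The part of the batch in such changes was not tested.

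**Figure D2:**
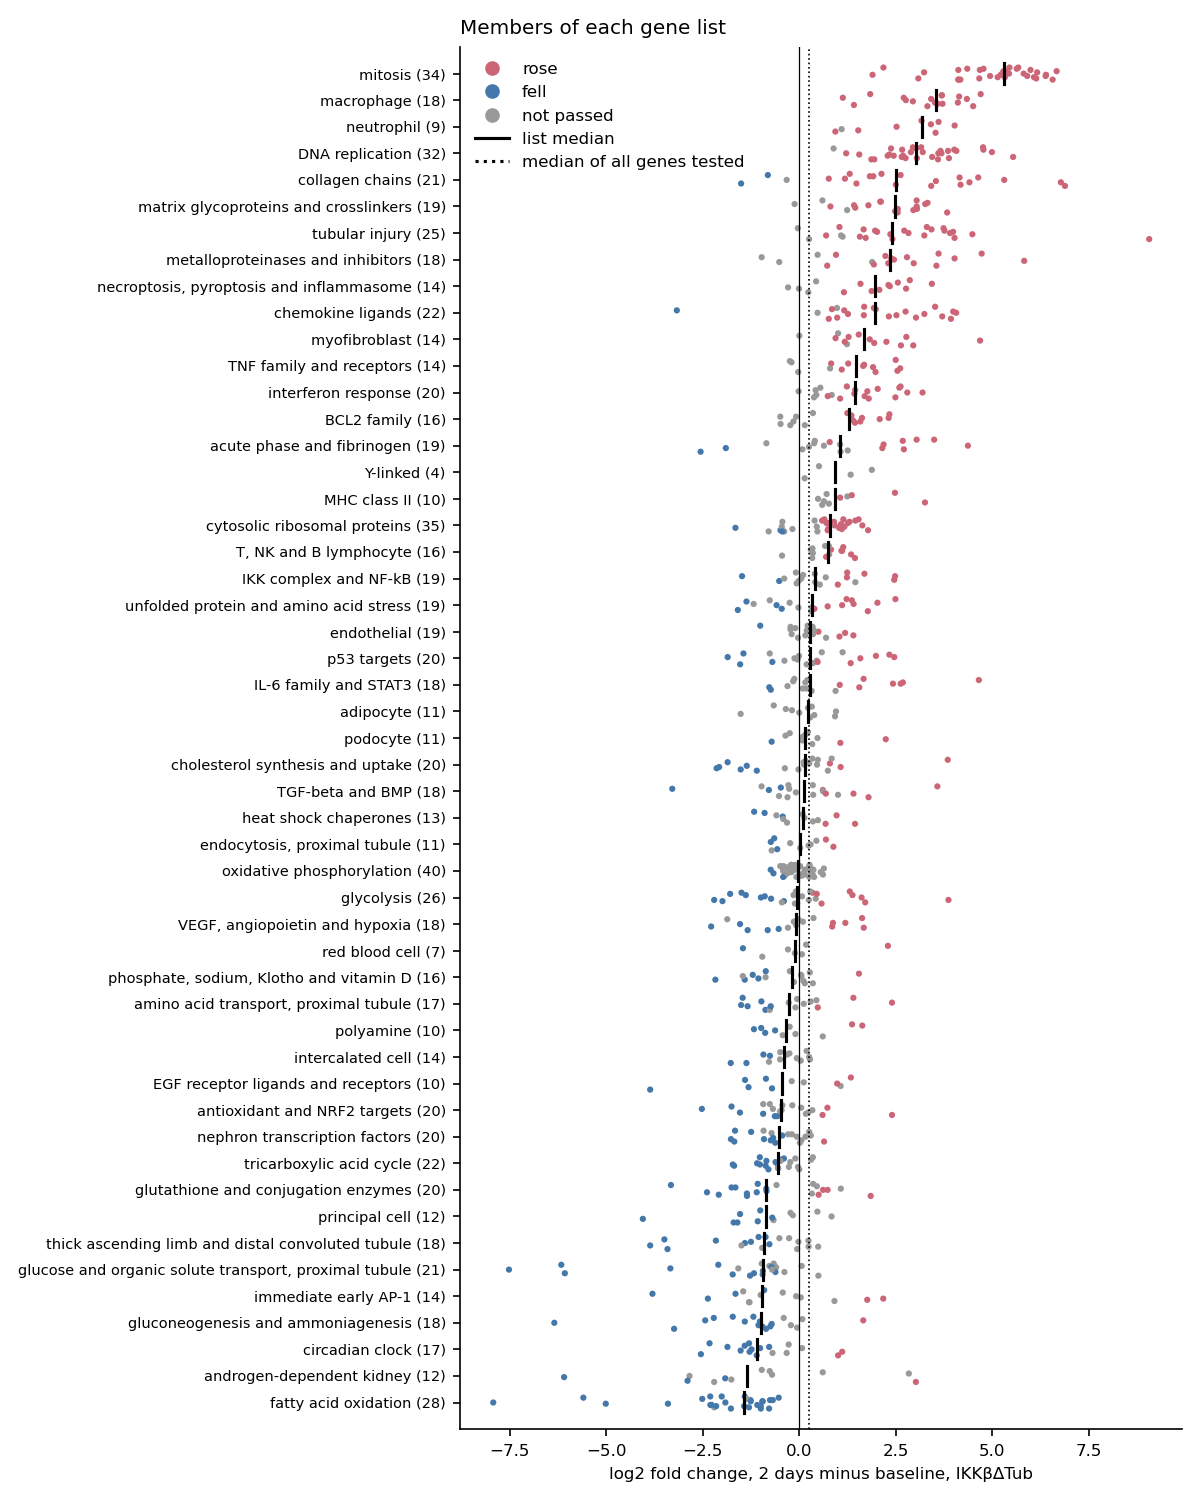
Log2 fold change at 2 days against baseline of each tested member of the gene lists (tested members in brackets), 1 point per gene, with red for genes that rose, blue for genes that fell and grey for genes that did not pass. The black bar is the list median and the dotted line the median of all genes tested (0.25). Mitosis has the highest list median, 5.31, and fatty acid oxidation the lowest, -1.42.

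Genes of cell division rose in nearly every case. All 34 mitosis genes rose, with a median log2 fold change of 5.31, and 31 of 32 genes of DNA replication rose, with a median of 3.03, where 35.4% of all genes rose. The counts were the same under median-ratio scaling and without the 2 libraries that hold Xist. Top2a, the topoisomerase that untangles chromosomes, had levels of 0.0136, 0.0129 and 0.00975 at baseline and 1.48, 1.97 and 1.75 at 2 days. The groups were far apart and the libraries within each were close, at a 101-fold difference (log2 6.66, SE 0.50, adjusted p = 4.23e-08 from limma). Cdk1, the kinase that starts mitosis, had 0.0146, 0.00895 and 0.0112 and then 1.41, 1.18 and 1.52. Birc5, which encodes the spindle protein survivin, had a log2 fold change of 6.39 (SE 0.37) and Hmmr, a spindle-associated gene, 6.18 (SE 0.39). In DNA replication the largest rise was that of Uhrf1, which carries DNA methylation through replication, from 0.0196, 0.0144 and 0.0155 to 0.873, 1.04 and 1.06. Rrm2, the regulated subunit of the enzyme that makes deoxynucleotides, had 4.77 (SE 0.27) and Pcna, the sliding clamp, 1.21 (SE 0.13). Mcm10 did not pass (0.89, adjusted p = 0.102), with baseline levels of 0.0433, 0.233 and 0.200 of which replicate 1 was the low one.

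Many mitotic promoters are known to combine a CCAAT box with the cell cycle homology region, whose core reads TTTGAA, and the promoters of the mitosis genes were searched for these letters. The windows are 250 bases before to 50 after the gene start, from RefSeq on GRCm38.p6, searched on both strands. Matches of the motifs can share a letter and were counted separately. Of 28 mitosis genes with a window 21 held CCAAT (75%), 20 held TTTGAA (71.4%) and 18 held both (64.3%). Of the 12056 tested genes with a window 41.9%, 14.9% and 6.01% did. DNA replication had CCAAT in 16 of 27 (59.3%) and TTTGAA in 4 (14.8%), and fatty acid oxidation had CCAAT in 8 of 20 (40%) and TTTGAA in 3 (15%). A match is a stretch of letters and not evidence of binding. The windows of 4 mitosis genes with large rises are printed because they show how the motifs sit together, with both motifs in capitals wherever they stand on either strand. They lie on the minus strand at chr11:99024140-99024439 (Top2a, log2 fold change 6.66), chr7:135716330-135716629 (Mki67, the proliferation marker, 6.56), chr10:69352863-69353162 (Cdk1, 6.38) and chr9:70421505-70421804 (Ccnb2, the cyclin partner of Cdk1, 6.16).
Top2a: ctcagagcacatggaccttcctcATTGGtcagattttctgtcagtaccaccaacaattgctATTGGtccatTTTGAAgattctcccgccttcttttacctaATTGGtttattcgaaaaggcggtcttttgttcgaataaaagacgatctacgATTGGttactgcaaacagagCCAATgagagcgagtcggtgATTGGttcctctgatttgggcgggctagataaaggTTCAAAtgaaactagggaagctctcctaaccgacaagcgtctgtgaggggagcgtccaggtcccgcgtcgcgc
Mki67: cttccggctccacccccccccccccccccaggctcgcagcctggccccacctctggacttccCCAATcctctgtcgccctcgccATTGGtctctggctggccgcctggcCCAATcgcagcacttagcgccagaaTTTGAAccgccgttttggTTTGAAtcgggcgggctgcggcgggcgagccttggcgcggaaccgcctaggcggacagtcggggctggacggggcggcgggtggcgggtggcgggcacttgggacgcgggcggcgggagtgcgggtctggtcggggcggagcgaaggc
Cdk1: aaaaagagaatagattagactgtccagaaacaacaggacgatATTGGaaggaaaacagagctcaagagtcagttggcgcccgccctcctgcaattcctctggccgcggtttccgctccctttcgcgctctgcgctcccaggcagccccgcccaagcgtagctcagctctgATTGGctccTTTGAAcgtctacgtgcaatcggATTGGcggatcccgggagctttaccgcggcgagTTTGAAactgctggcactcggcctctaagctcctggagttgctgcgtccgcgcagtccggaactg
Ccnb2: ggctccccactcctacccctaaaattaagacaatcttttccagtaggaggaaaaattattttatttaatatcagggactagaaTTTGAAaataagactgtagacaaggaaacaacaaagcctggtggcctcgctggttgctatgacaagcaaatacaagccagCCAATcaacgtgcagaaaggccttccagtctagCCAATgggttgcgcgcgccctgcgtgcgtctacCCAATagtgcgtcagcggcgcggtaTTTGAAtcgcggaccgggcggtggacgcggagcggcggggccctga
Top2a holds 6 copies of CCAAT and the others 3 each, and every one of these windows holds 2 copies of TTTGAA.

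Genes of tubular injury rose in 21 of 25 cases and none fell, with a median log2 fold change of 2.41. Under median-ratio scaling, and without the 2 libraries that hold Xist, 18 rose. Havcr1, which encodes the phosphatidylserine receptor KIM-1 of injured proximal tubules, had low levels at baseline (0.0222, 0.0332 and 0.00737) and was at 11.6, 11.5 and 14.7 at 2 days. Lcn2, an iron-carrier binding protein, went from 0.108, 0.442 and 0.217 to 2.62, 3.73 and 2.83 (log2 3.76). Neither gene showed overlap between the groups. Clu, a secreted chaperone, had a log2 fold change of 4.02 (SE 0.39), Cd44, a hyaluronan receptor, 4.48 (SE 0.53) and Sox9, a factor of regenerating tubule cells, 2.41 (SE 0.41). Spp1, the matrix cytokine osteopontin, was already high at baseline, at 20.1, 24.4 and 16.1, and reached 108, 150 and 173.

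Acute phase genes moved both ways, in shares near those of all genes. Of 19 tested 8 rose (42.1%) and 2 fell (10.5%), against 35.4% and 14.9% of all genes, with a median of 1.06. Without the 2 libraries that hold Xist 6 rose and 2 fell. Saa3, a serum amyloid made by macrophages and epithelia, rose from at most 0.00201 at baseline to 0.134, 0.0686 and 0.220. Hp, the haemoglobin scavenger haptoglobin, rose on average (log2 3.49, SE 0.92, adjusted p = 0.00512 from limma) but varied, from 0.317, 0.273 and 0.0285 to 2.56, 0.368 and 4.46. Replicate 2 at 2 days was close to the higher baseline libraries. Fga, which encodes the fibrinogen alpha chain, fell from 1.61, 3.29 and 2.53 to 0.264, 0.385 and 0.620 (log2 -2.56, SE 0.65, adjusted p = 0.00405). Fgg, the gamma chain, fell with a log2 fold change of -1.91 (adjusted p = 0.0225), although its 2-day replicate 3 (0.450) overlapped its baseline replicate 1 (0.445). The fall of Fgg lost significance without baseline replicate 2, baseline replicate 3 or 2-day replicate 1 (log2 -2.87 to -1.38 over all fits).

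Genes of programmed cell death rose in part. Of 14 genes of necroptosis, pyroptosis and the inflammasome 10 rose, with a median of 1.97, and none fell. Ripk3, the kinase of necroptosis, went from 0.0151, 0.0131 and 0.0128 to 0.184, 0.181 and 0.226, and Mlkl, its membrane-breaking target, had a log2 fold change of 2.76 (SE 0.25). Ripk1, the kinase upstream of Ripk3, did not pass (0.23, adjusted p = 0.15). In the BCL2 family 9 of 16 rose and none fell at a median of 1.3 (9 and 2 under median-ratio scaling). The pore-forming death genes Bax (2.33, SE 0.20) and Bak1 (2.08) rose, whereas the survival genes Bcl2 (0.14), Bcl2l1 (-0.49) and Mcl1 (-0.15) did not pass. The p53 targets were mixed, with 6 of 20 up (30%) and 4 down (20%) and a median of 0.27, near that of all genes. Of all genes 35.4% rose and 14.9% fell, so these shares were near theirs as well. Under median-ratio scaling 5 p53 targets rose and 8 fell. Cdkn1a, the p53-driven cell cycle inhibitor p21, had levels of 0.378, 2.88 and 2.40 at baseline and 1.63, 1.40 and 1.72 at 2 days, so that the groups overlapped and no change passed (0.19, SE 0.61, adjusted p = 0.817). Its direction depended on the scaling and on baseline replicate 1, without which it was -0.74.

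**Figure D3:**
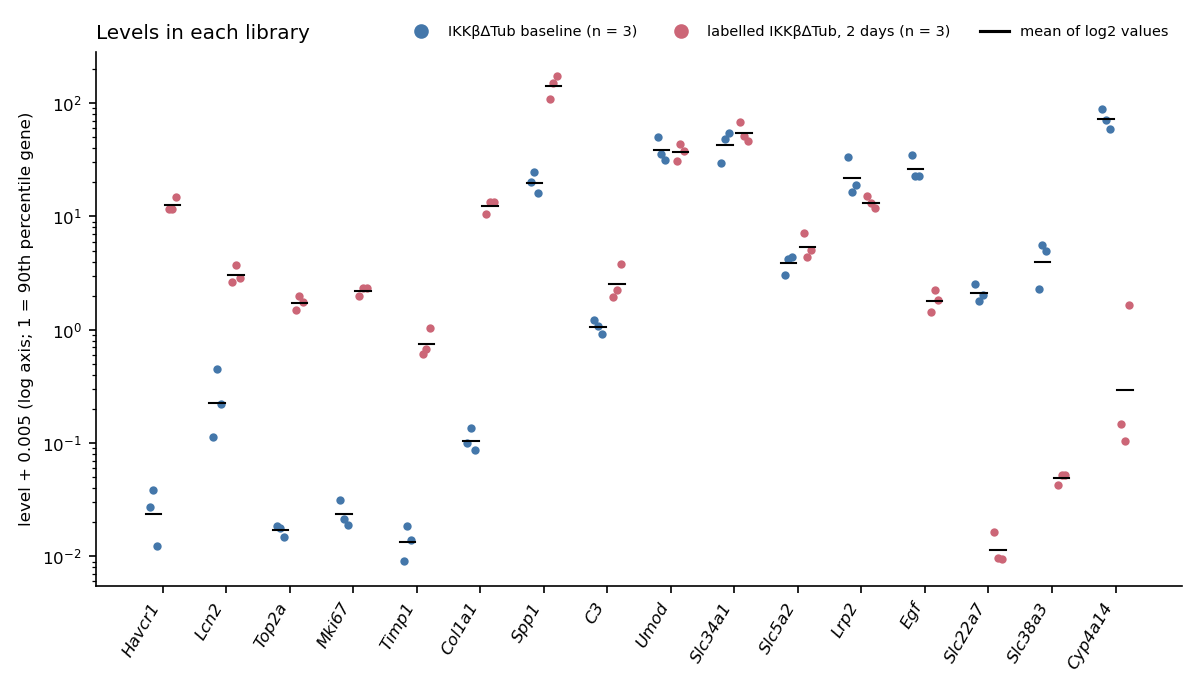
Level + 0.005 in each library (log axis, where a level of 1 is the 90th percentile gene) of 16 genes at baseline (blue) and in the libraries labelled IKKβ∆Tub at 2 days (red), with a bar at the mean of the log2 values (n = 3 pools each). Havcr1 moves from at most 0.0332 to at least 11.5, Umod and Slc34a1 overlap, and Slc38a3 moves from at least 2.27 to at most 0.0476.

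Genes of the proximal tubule did not fall as a block. Of 21 genes of glucose and organic solute transport 12 fell and none rose, at a median of -0.95 (16 fell under median-ratio scaling and 9 without the 2 libraries that hold Xist), where 14.9% of all genes fell. The deepest falls were in organic anion transporters, for example Slc22a19, which went from 3.04, 0.978 and 1.03 to 0.00937, 0.00614 and 0.0471. Slc22a8, the transporter OAT3, went from 9.07, 9.36 and 8.08 to 2.13, 1.49 and 2.73, and Slc5a8, a lactate carrier, had a log2 fold change of -3.34 (SE 0.47). Slc5a2, which encodes the glucose carrier SGLT2, had 3.06, 4.24 and 4.36 at baseline and 7.13, 4.38 and 5.05 at 2 days, above every baseline library but without passing (0.49, adjusted p = 0.281). Slc34a1, the main phosphate carrier, had 29.8, 48.5 and 54.3 and then 68.7, 50.9 and 46.4, which overlapped (0.35, adjusted p = 0.529). Both carriers belong to the proximal tubule, as Slc22a8 does.

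Among 17 amino acid transporter genes 7 fell and 3 rose, at a median of -0.28, and 4 fell and 2 rose without the 2 libraries that hold Xist. Slc6a19, which takes up neutral amino acids, fell (-0.88), as did Slc3a1, a subunit of the cystine carrier (-1.47). Slc7a11, the cystine importer that feeds glutathione synthesis, rose from at most 0.00689 to 0.0583, 0.0671 and 0.0249. The water channel gene Aqp1 fell from 15, 17.1 and 21.2 to 4.63, 3.70 and 3.42 (log2 -2.18, SE 0.29), and Vdr, the vitamin D receptor gene, fell as well (-1.06, SE 0.20). Kl, which encodes the FGF23 co-receptor Klotho, had 5.21, 6.04 and 6.74 and then 3.22, 4.45 and 2.40. Its groups did not overlap, yet it did not pass (-0.88, SE 0.40, adjusted p = 0.0765). Lrp2, the endocytic receptor megalin, did not pass on the deposited scale (-0.72, adjusted p = 0.138) but did under median-ratio scaling and with the count tests. In the endocytosis list of 11 genes 3 fell and 2 rose (median 0.02).

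Among 20 nephron transcription factors 9 fell and 1 rose, with a median of -0.53. Klf15, a regulator of amino acid and fatty acid use, went from 1.63, 2.20 and 1.88 to 0.817, 0.521 and 0.464. Ppara, the receptor that drives fatty acid oxidation genes, went from 0.642, 1.02 and 1.12 to 0.194, 0.474 and 0.190. Hnf4a, the factor that maintains proximal tubule identity, had a smaller fall (-0.92, SE 0.22, adjusted p = 0.00285). Ppargc1a, a coactivator of mitochondrial genes, fell with -1.67 (SE 0.25), while Pax2, a factor of the developing nephron, did not pass (0.05). Pax8, whose promoter drives the deletion, fell with -0.44.

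Further along the nephron, 9 of 18 genes of the thick ascending limb and distal convoluted tubule fell and none rose (median -0.92), as did 7 of 12 principal cell genes (median -0.86) and 4 of 14 intercalated cell genes (median -0.41). Without the 2 libraries that hold Xist, 4, 6 and 0 fell and 1 gene of the thick ascending limb and distal convoluted tubule rose. Under median-ratio scaling 12, 9 and 7 fell. Egf, the growth factor of the distal tubule, went from 35.1, 22.9 and 22.6 to 1.43, 2.23 and 1.83, a 14.6-fold lower level (log2 -3.87, SE 0.85, adjusted p = 0.00147 from limma). Slc12a1, the salt carrier NKCC2 of the thick ascending limb, fell from 23.2, 13.3 and 15.2 to 2.92, 5.92 and 2.98. Umod, made by the same cells, had 50.5, 35.7 and 31.7 and then 31.1, 43.6 and 37.5, which overlapped (-0.06, SE 0.46, adjusted p = 0.93). The distal calcium-binding gene Calb1 had a log2 fold change of -3.42 (SE 0.69). In principal cells, which take up water under vasopressin, Aqp2 went from 3.69, 4.82 and 6.14 to 1.40, 1.28 and 2.15 and Aqp4 from 1.73, 0.357 and 0.359 to 0.0229, 0.0701 and 0.0187. In whole kidney tissue, fewer cells of a type and less RNA per cell cannot be told apart.

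**Figure D4:**
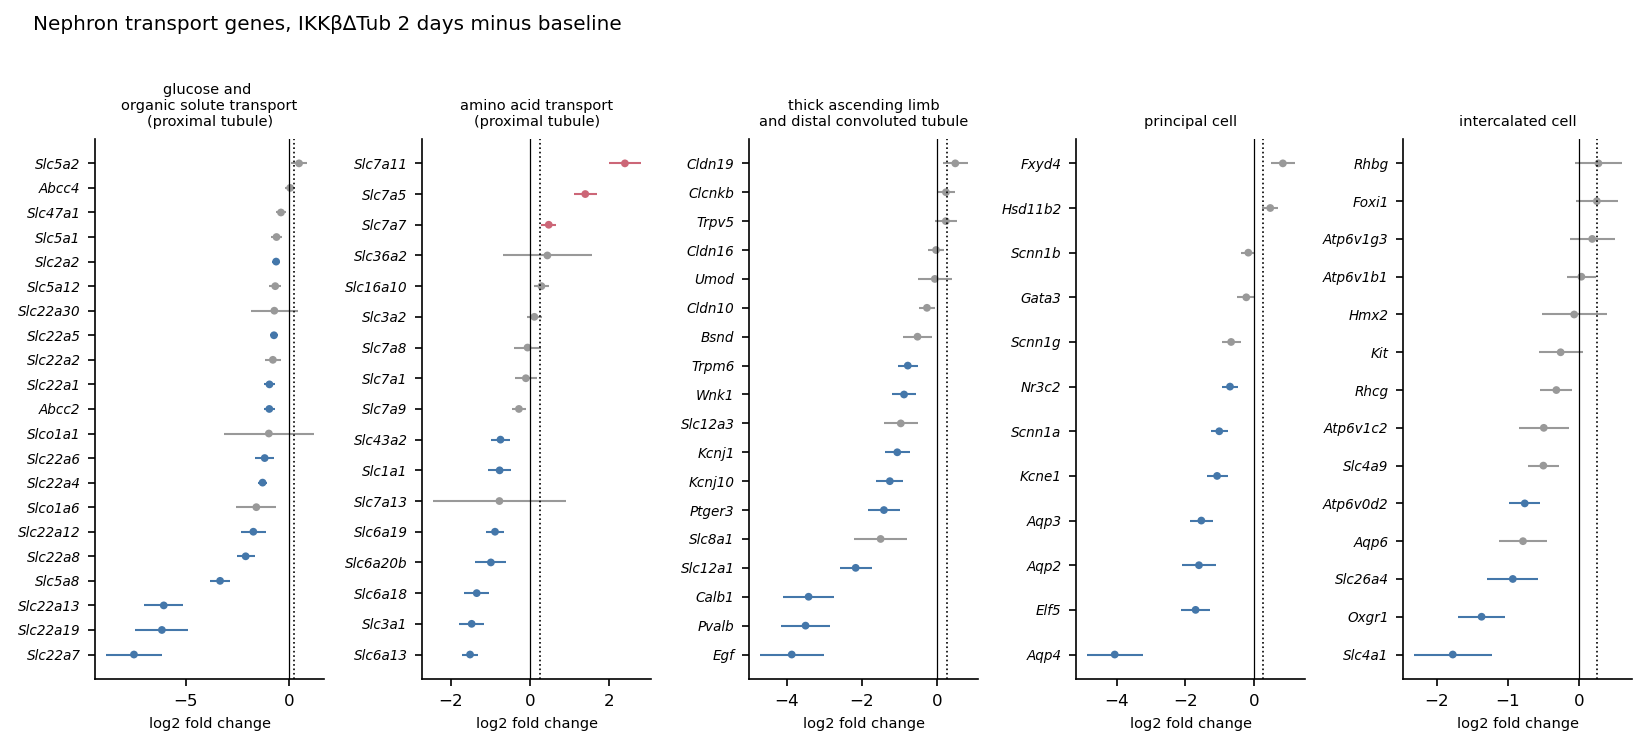
Log2 fold change at 2 days against baseline (points, with SE as bars, on a separate axis in each of 5 panels) of the tested genes of proximal tubule transport, the thick ascending limb and distal convoluted tubule, and principal and intercalated cells. Red genes rose, blue genes fell, grey genes did not pass, and the dotted line is the median of all genes (0.25). Slc22a7, Slc22a19, Slc22a13, Aqp4 and Egf lie far to the left, while Slc5a2 (0.49) and Umod (-0.06) lie near 0.

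The genes of fatty acid oxidation fell in 26 of 28 cases and none rose, at a median of -1.42, with the same 26 under median-ratio scaling and 25 without the 2 libraries that hold Xist. The lowest were targets of Ppara. Cyp4a14, which hydroxylates fatty acids at their end, went from 88.5, 70.7 and 59.5 to 0.144, 0.0983 and 1.66, with replicate 3 well above the other 2-day libraries, and Cyp4a10, which shares sequence with its relatives, had a log2 fold change of -5.60 (SE 0.48). Other members had smaller falls. Acadm, the medium-chain dehydrogenase of mitochondria, went from 22.7, 15.7 and 17.0 to 3.83, 3.78 and 3.42. The members that did not pass were Cyp4a12a (-2.21) and Cyp4b1 (-1.36), genes that differ between the sexes.

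The citric acid cycle and the respiratory chain differed in their counts. Of 22 tricarboxylic acid cycle enzymes 13 fell and none rose (median -0.55), whereas of 40 oxidative phosphorylation genes 3 fell and none rose (median -0.05). Under median-ratio scaling 16 and 13 fell, and without the 2 libraries that hold Xist 10 and 1 fell, so the respiratory chain count depended on the scaling. Sdha, a subunit of the enzyme shared by both, had levels of 14, 14.8 and 15.3 and then 7.55, 7.10 and 7.04 (log2 -1.03, SE 0.18). Cs, the citrate synthase, did not pass and was nearly level, at 4.78, 4.86 and 4.56 and then 4.92, 4.43 and 4.83. Among the respiratory chain subunits Ndufs1 (-0.67), Ndufs3 (-0.74) and Uqcrc2 (-0.42) were the 3 that fell, and Cox4i1 (0.14) and Atp5b (-0.31) did not pass. Ndufs3 shares sequence with another gene.

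Making glucose and ammonia from amino acids is a proximal tubule function, and 13 of 18 of its genes fell while 1 rose, at a median of -0.99 (7 fell and 1 rose without the 2 libraries that hold Xist). Slc38a3, the glutamine carrier that feeds ammonia production, went from 2.27, 5.60 and 4.96 to 0.0375, 0.0476 and 0.0471, an 81.6-fold lower level (log2 -6.35). Pck1, which commits carbon to glucose, went from 135, 169 and 149 to 16.3, 12.2 and 19.9, a 9.48-fold lower level (log2 -3.25, SE 0.61, adjusted p = 0.000393). The gene that rose was Pck2, its mitochondrial relative, from 0.351, 0.273 and 0.306 to 1.00, 0.892 and 1.06. Glud1, which releases ammonia from glutamate, had -2.22 (SE 0.30). Fbp1, which reverses the phosphofructokinase step, fell with -1.06 (adjusted p = 0.0399 from limma), a call that was lost without baseline replicate 2, baseline replicate 3 or any one 2-day library.

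Glycolysis genes moved both ways, with 8 of 26 up and 9 down (median -0.07), or 5 up and 6 down without the 2 libraries that hold Xist and 3 up and 11 down under median-ratio scaling. Hk3, a hexokinase of myeloid cells, went from 0.00151, 0.00458 and 0.00190 to 0.104, 0.0916 and 0.121 (log2 3.86, SE 0.38). These baseline levels lay below the 0.005 added to each value, so the size of the fold depends on that value. Ldha, the lactate-forming subunit (0.57), and Pkm, the pyruvate kinase of dividing cells (0.45), had smaller rises. Pfkfb3, the enzyme that makes the activator of phosphofructokinase, fell from 0.860, 1.3 and 1.14 to 0.269, 0.306 and 0.361 (log2 -1.79). Pgk1, a glycolytic kinase, also fell (-1.99), from 8.19, 8.41 and 8.48 at baseline to 2.35, 1.89 and 2.07 at 2 days. It shares sequence with other genes, and the part of the batch in its fall was not tested.

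Of 19 genes of the NF-κB pathway 6 rose (31.6%) and 2 fell (10.5%), shares near the 35.4% and 14.9% of all genes. The median was 0.41, and 4 rose and 2 fell without the 2 libraries that hold Xist. Within the kinase complex, Ikbkb rose while Chuk, which encodes IKKα, fell from 2.97, 3.35 and 3.20 to 0.993, 1.66 and 0.870 (log2 -1.49, SE 0.26), and Ikbkg, the regulatory subunit NEMO, fell with -0.52 (SE 0.13). Among the transcription factors Nfkb1 rose from 0.471, 0.376 and 0.354 to 0.829, 0.984 and 1.03, and Nfkb2 (1.23, SE 0.30) and Relb (1.69, SE 0.41), the partners of the alternative pathway, rose too. Rela did not pass (0.41, adjusted p = 0.144). Relb lost its call without the 2 libraries that hold Xist. The inhibitors Nfkbie (2.46, SE 0.36) and Nfkbid (2.48) rose, whereas Nfkbia and Tnfaip3, feedback inhibitors that NF-κB induces within hours, did not pass and overlapped. Nfkbia had 1.05, 1.12 and 0.796 and then 0.877, 0.877 and 1.05 (-0.07, adjusted p = 0.863), and Tnfaip3 had -0.02 (adjusted p = 0.959).

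Ligands of inflammation rose more uniformly. Of 14 genes of the TNF family and its receptors 10 rose and none fell (median 1.46), with Tnfsf13b, the B cell factor BAFF, going from 0.0186, 0.0157 and 0.0212 to 0.146, 0.109 and 0.142. Of 22 chemokine genes 19 rose and 1 fell (median 1.95), or 15 and 0 without the 2 libraries that hold Xist. Ccl2, which draws monocytes, went from 0.00756, 0.0124 and 0.00808 to 0.148, 0.178 and 0.355, and Ccl9 from 0.0151, 0.0657 and 0.0330 to 0.510, 0.605 and 0.798. Ccl28, a chemokine of epithelia, was the one that fell, from 0.973, 0.108 and 0.160 to 0.0219, 0.0353 and 0.0178, and it lost its call without baseline replicate 1. In the IL-6 family and its STAT3 axis 7 of 18 rose (38.9%) and 2 fell (11.1%), at a median of 0.26. These shares are near the 35.4% and 14.9% of all genes. Il6 itself was at or below 0.00415 in all 6 libraries and did not pass, while Lif (2.68) and Clcf1 (2.62), cytokines of the same family, rose. Il1rn, the interleukin-1 antagonist, rose too (4.65, SE 0.51), from baseline levels near the 0.005 added to each value (2.49 to 5.42 over all fits). Interferon-induced genes rose in 14 of 20 cases (median 1.44), led by Bst2, which tethers viruses, from 0.0771, 0.0749 and 0.0768 to 0.753, 0.614 and 0.865.

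Markers of leukocytes rose alongside. All 18 macrophage genes rose (median 3.55), 17 of them under median-ratio scaling and 16 without the 2 libraries that hold Xist. Lyz2, the lysozyme of macrophages and neutrophils, went from 0.135, 0.194 and 0.162 to 3.70, 4.87 and 4.49 (log2 4.70), and Adgre1, a surface receptor that marks macrophages, from 0.0453, 0.0412 and 0.0307 to 0.385, 0.535 and 0.385. The summed neutrophil level went from 0.11 to 0.501 at baseline to 2.01 to 2.85 at 2 days, and 8 of 9 neutrophil genes rose. Csf3r, the G-CSF receptor, had a log2 fold change of 4.02 (SE 0.40) and Mmp9, the gelatinase of neutrophil granules, went from 0.0196, 0.0216 and 0.0150 to 0.267, 0.342 and 0.246. Lymphocyte genes were low, with a sum of 0.0575 to 0.0927 and then 0.142 to 0.225. Of 16 tested 7 rose (43.8%, against 35.4% of all genes), and 2 rose without the 2 libraries that hold Xist. Cd3e, which defines T cells, did not pass (0.33). Chemokine, TNF family, interferon and Hk3 levels therefore moved together with leukocyte markers, and the part of leukocytes in their rise was not tested. MHC class II genes rose in 4 of 10 cases (40%), near the 35.4% of all genes, and Cd74 (0.76) and H2-Aa (0.59) did not pass. Under median-ratio scaling 2 of them rose, and 2 without the 2 libraries that hold Xist.

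Matrix genes rose across classes. Collagen chains rose in 18 of 21 cases and fell in 2, at a median of 2.5. Col3a1, a fibrillar chain of early scars, went from 0.186, 0.150 and 0.109 to 13.5, 19.1 and 17.2 (log2 6.78, SE 0.58). The chains that fell were Col4a3 (-1.51) and Col4a4 (-0.82), which form the glomerular and tubular basement membrane network, and neither passed without the 2 libraries that hold Xist. Of 19 matrix glycoproteins and crosslinkers 16 rose (median 2.48), among them Fn1, which encodes fibronectin, from 0.404, 0.222 and 0.183 to 2.93, 5.06 and 3.36. Lox, a collagen crosslinking enzyme, did not pass and overlapped (-0.13), while its relative Loxl2 rose (3.04). Metalloproteinases and their inhibitors rose in 14 of 18 cases (median 2.34). Timp1, an inhibitor, went from 0.00403, 0.0135 and 0.00903 to 0.606, 0.666 and 1.04 (log2 5.82, SE 0.68), whereas Timp3 (-0.98) and Timp4 (-0.52) did not pass. Of 14 myofibroblast genes 11 rose (median 1.68), with Acta2, the smooth muscle actin of contractile fibroblasts, going from 1.33, 0.899 and 0.604 to 8.16, 5.84 and 7.12. Myh11, the myosin of vessel smooth muscle, did not pass (0.00).

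Of 19 endothelial genes 4 rose and 1 fell (median 0.27), against 3 and 4 under median-ratio scaling, and Pecam1, the pan-endothelial adhesion molecule, had 1.38, 1.47 and 1.20 and then 1.15, 1.35 and 1.46, which overlapped (-0.03, SE 0.16, adjusted p = 0.869). Flt1, a VEGF receptor, fell from 2.00, 2.41 and 2.07 to 1.06, 1.03 and 1.10, while Eng, a TGF-β co-receptor of dividing endothelium, rose from 1.83, 1.70 and 1.69 to 3.46, 3.12 and 4.24. Among angiogenic ligands Vegfa, which tubules and podocytes supply to capillaries, fell from 2.98, 3.23 and 3.14 to 2.02, 1.49 and 1.82 (log2 -0.82, SE 0.22, adjusted p = 0.00561), and Vegfd rose from 0.143, 0.0967 and 0.0870 to 0.331, 0.255 and 0.460. Angpt2, a destabiliser of vessels, did not pass (-0.03). Hif1a, the oxygen-regulated factor, fell (-1.54, SE 0.33), from 2.35, 1.98 and 1.89 to 0.483, 1.45 and 0.508, with 2-day replicate 2 the highest of its group. In the VEGF, angiopoietin and hypoxia list as a whole 5 of 18 rose and 5 fell (2 and 7 under median-ratio scaling).

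Growth factor signals of repair moved in both directions. In the EGF receptor family 2 of 10 rose and 5 fell, with the receptors Egfr (-0.87) and Erbb4 (-1.41) lower and Erbb2 (0.98) higher. Hbegf, a ligand shed by stressed epithelium, did not pass and overlapped, at 0.396, 1.85 and 0.678 and then 0.737, 0.643 and 0.693. In the TGF-β and BMP list 5 of 18 rose (27.8%) and 3 fell (16.7%), shares near the 35.4% and 14.9% of all genes. Under median-ratio scaling 4 of them rose and 5 fell. Tgfb1 rose from 0.244, 0.275 and 0.239 to 0.751, 0.842 and 1.10, Ltbp2, a matrix protein of the same family as TGF-β carriers, had 3.57 (SE 0.61), and the BMP antagonist Grem1 fell from 0.0927, 0.141 and 0.178 to 0.00729, 0.0123 and 0.00799.

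Redox and detoxification genes tended to be lower. Of 20 antioxidant genes and NRF2 targets 6 fell and 3 rose (median -0.48). Gclc, which limits glutathione synthesis, went from 7.61, 13.5 and 11.0 to 1.69, 2.30 and 1.5 (log2 -2.53, SE 0.41), and Cat, the peroxisomal catalase, from 18.5, 24.4 and 22.5 to 6.5, 7.11 and 5.70. Hmox1, the haem-degrading enzyme, had 0.879, 8.25 and 12.8 at baseline and 2.36, 2.35 and 2.38 at 2 days. The baseline libraries spread over a wide range, so that no change passed (-0.94, adjusted p = 0.28), and without the 2 libraries that hold Xist it passed as a fall (-2.12). Of 20 glutathione and conjugation enzymes 11 fell and 4 rose (median -0.86), with Ugt3a1, a sugar transferase, at -3.33 and Gstp1 at 0.50.

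Stress programmes differed from each other. Immediate early genes of the AP-1 group were mostly not raised, with 2 of 14 up and 4 down and a median of -0.96. Fosb fell from 0.216, 1.20 and 0.388 to 0.0375, 0.0225 and 0.0275, Fosl1, a late AP-1 subunit, rose (2.17, SE 0.48), and Fos (-1.29) and Atf3 (-1.46) did not pass. In the unfolded protein and amino acid stress list 9 of 19 rose and 4 fell (6 and 6 under median-ratio scaling). Chaperones of the endoplasmic reticulum such as Hsp90b1 (1.36) and Pdia6 (1.77) rose, as did Phgdh, the first enzyme of serine synthesis (2.49), which shares sequence with another gene, while Dnajb9 (-1.59) and Xbp1 (-0.59) fell and Ddit3 (-0.25) did not pass. Clock genes fell in 11 of 17 cases and rose in 2, at a median of -1.11. Nr1d1, the repressor REV-ERBα, went from 1.44, 1.47 and 0.689 to 0.197, 0.192 and 0.179 and Dbp, its co-regulated factor, from 0.848, 0.944 and 0.842 to 0.335, 0.296 and 0.277. Arntl and Npas2, which peak in the opposite phase, rose (1.00 and 1.11), although Arntl did not pass under median-ratio scaling. The hour of tissue collection is not given in the sources used here. Cytosolic ribosomal protein genes rose in 23 of 35 cases and fell in 3 (14 and 7 under median-ratio scaling). Only 10 rose and 5 fell without the 2 libraries that hold Xist, so this count depended on the scaling and on those libraries. The share of all reads from these genes was 0.908% to 1.03% at baseline and 1.54% to 1.95% at 2 days. Rpl5, which shares sequence with another gene, fell from 6.17, 6.33 and 6.15 to 1.98, 1.74 and 2.21.

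The response of IKKβ∆Tub was set beside that of the control strain, to ask whether the deletion changed it. The control arm is not made up alike. The library key lists baseline replicates 1 and 2 and 2-day replicate 3 as single animals, whereas the sample titles name 2 mice for each. By the key, 2-day replicate 3 comes from another animal series than the other 2-day libraries. Xist was present in every control baseline library (3.33 to 5.86) and at 0.00149 in control 2-day replicate 1. The part of these differences in the interaction was not tested. At 2 days neither Ikbkb nor Vmn1r32 told the strains apart, so the strains are compared as labelled. The 5780 genes that rose in IKKβ∆Tub had a median log2 fold change of 1.05 there and 0.70 in control, and the 2428 that fell had -0.94 and -0.60. Since these genes were chosen by their change in IKKβ∆Tub, the difference of those medians is a description. The interaction, the response of IKKβ∆Tub minus that of control, passed limma's test in 0 of 16342 genes. The lowest adjusted p was 0.0548, and 2451 genes (15%) had an unadjusted p under 0.05. edgeR called 2 genes, both lower in the IKKβ∆Tub response, and DESeq2 129 higher and 249 lower. Leaving out single libraries changed this count. Without baseline replicate 1, which holds Xist, 308 genes were higher and 212 lower in the IKKβ∆Tub response, and without 2-day replicate 2 they were 179 and 340. Of the remaining single libraries, control 2-day replicate 1 and replicate 3 each gave 1 lower gene when left out.

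The 4 genes with the lowest interaction p were Zfp869, Pfkfb3, Vmn1r32 and Col14a1. Pfkfb3 fell in IKKβ∆Tub, whereas the control libraries had 0.446, 0.396 and 0.505 at baseline and 0.313, 0.443 and 0.474 at 2 days (interaction -1.65, adjusted p = 0.0548 from limma). Its 2-day levels overlapped between the strains, and the baseline levels did not. Zfp869, a zinc finger gene, had a log2 fold change of -1.43 in IKKβ∆Tub and an interaction of -1.39, with control levels between 0.209 and 0.236 at both times. Col14a1, a collagen of fibril surfaces, rose in IKKβ∆Tub from 0.345, 0.294 and 0.280 to 1.92, 1.77 and 2.03 and had 0.450, 0.524 and 0.797 and then 1.24, 1.43 and 1.25 in control (interaction 1.44, adjusted p = 0.129). Vmn1r32 had no reads in control at baseline and 21, 31 and 3 reads there at 2 days, against 17, 32 and 18 in IKKβ∆Tub, and no fold is given for control. Some lists also differed in their medians, without a test of the list. Adipocyte genes had a median of 3.89 in control and 0.22 in IKKβ∆Tub, and their summed level varied within groups from 1.07 to 9.65 at IKKβ∆Tub baseline and from 1.79 to 10.5 at 2 days. In control the sums were 1.19 to 2.22 at baseline and 3.00, 15.5 and 17.0 at 2 days, so control 2-day replicate 1 was far below the other 2. The immediate early AP-1 genes had a median interaction of -1.29, with 13 of 14 below 0. The oxidative phosphorylation genes had 0.39, with 37 of 40 above 0. Other lists leaned as well, with 31 of 35 ribosomal protein genes above 0 and 17 of 20 p53 targets below 0. The shares of all genes on each side of 0 are not given here. Fga had a log2 fold change of 0.30 and Fgg 1.38 in control, beside the falls given above, and neither interaction passed.

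**Figure D5:**
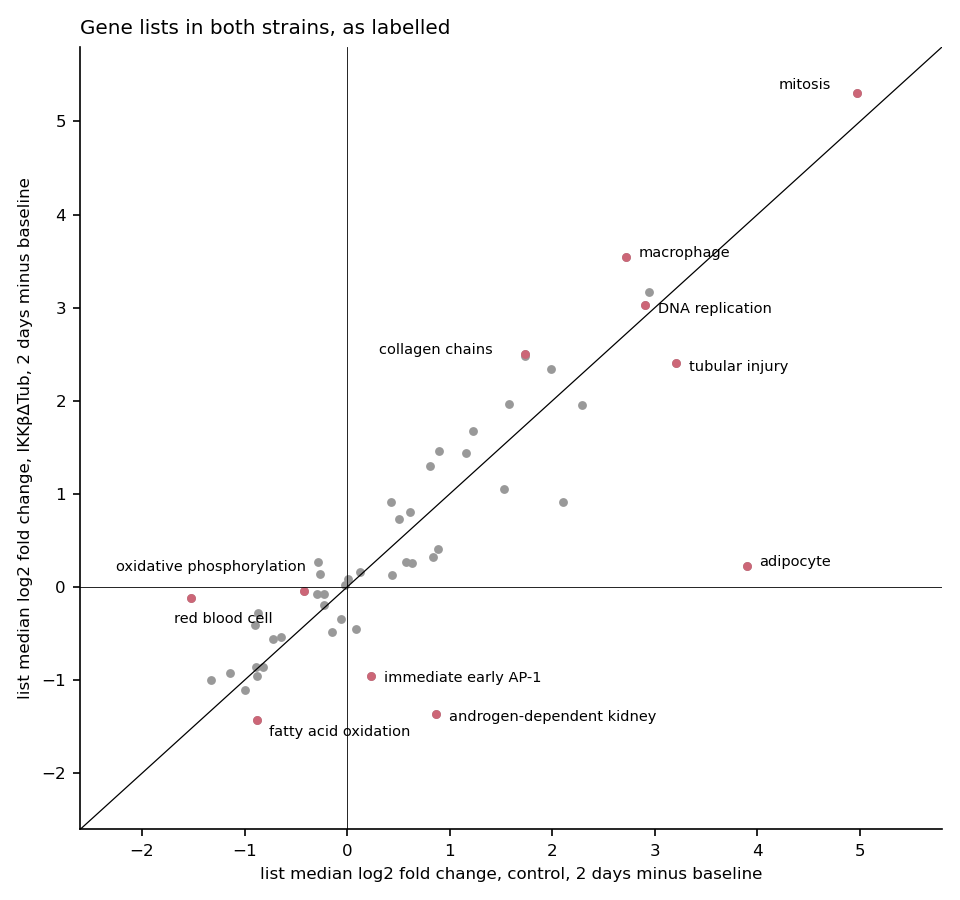
Median log2 fold change at 2 days against baseline of each gene list in the strain labelled control (horizontal axis) and in IKKβ∆Tub (vertical axis), 1 point per list, with the diagonal marking equal medians. Mitosis and DNA replication lie near the diagonal, and the adipocyte list (3.89 in control, 0.22 in IKKβ∆Tub) lies far below it.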

How the data were processed

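Kidney mRNA was sequenced in stranded, poly(A)-selected libraries. The submitters' processing notes name FastQC 0.11, Trim Galore 0.4, STAR 2.5.2b, featureCounts 1.5.2, StringTie 1.3.3b, MultiQC 1.4, R 3.6.3 and DESeq2 1.26.0, and the genome was GRCm38. The authors deposited a normalised signal, in which the reads of a gene are scaled by the 90th percentile of all genes in that library. Whole reads could be recovered for 100% of the values (tolerance 0.001 of a read), and count tests on them served as alternatives.

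Genes were kept where 3 or more of the 18 libraries reached 0.005. limma 3.58.1 in R 4.3.3 fitted log2(value + 0.005) for all 6 groups of the series together, with Benjamini-Hochberg adjusted p under 0.05. edgeR 4.0.16 and DESeq2 1.42.0 were run on the recovered reads. On simulated data of this comparison (15199 genes) limma recovered 52 of 100 genes changed 2-fold and 98 of 100 changed 4-fold, and called 7 of 15002 unchanged genes. The simulation gave every gene the same dispersion and held no difference of batch or sex and no overall shift. Its changed genes were not drawn from those with the fewest reads. It checks the fit and gives no error rate for the real comparison. A gene was taken to share sequence where at least 20% of its 50-base windows occur in another gene of GENCODE M21. Its exons were taken as overlapped where at least 20% of their bases lie in exons of another gene of the same strand. The columns of the authors' own comparisons were not used.

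The members, gene lists and tests were chosen with earlier results of these data known. Named genes were the 8 largest rises and the 8 largest falls without overlap and with a mean level of at least 0.1, the 2 largest changes in each list with up to 2 that went against it, a fixed set of 18 genes and the 4 lowest interaction p. Other members were named as examples after their values were seen. Jun, Jund, Ier2, Hspa1a, Hspa1b, Sox4 and the mitochondrially encoded genes are not analysed here. Alternatives covered the samples fitted, pseudocount, filter, scaling, depth, Y-linked expression as a covariate, the test, a replicate block and each library left out.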

Additional observations from a re-analysis of the deposited data

How the results depend on the processing

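Of the genes changed at 2 days, 5780 rose and 2428 fell. The number that rose was 3628 with edgeR on the 6 libraries alone and 1035 against a 2-fold change. The number that fell was 4073 with median ratios, 4066 with TMM, 4052 with edgeR, 4258 with DESeq2 and 175 against a 2-fold change. Leaving out 1 library gave 4727 to 5767 rising and 1743 to 2551 falling genes. No gene passed in opposite directions between limma and edgeR, DESeq2, the 6-library fit or the fit without the 2 libraries that hold Xist, the last chosen with edgeR on 6 libraries after seeing the data.

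Replicate numbers did not pair the libraries (correlations of same-numbered libraries -0.17, -0.17 and -0.19), and a replicate block gave 5627 and 2294 genes.

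For the interaction (0 genes by limma), 1 gene was higher with the pseudocount of 0.05 and 1 without a filter, and DESeq2 gave 129. Lower genes numbered 1 with only the libraries compared, 3 with the pseudocount of 0.05, 1 with that of 5e-04, 3 with median ratios, with TMM and after thinning, 1 with the Y-linked covariate, 2 with edgeR, 249 with DESeq2 and 1 with the replicate block. Leaving out 1 library gave 0 to 308 higher and 0 to 340 lower genes.

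Of 148 named genes 146 kept their sign in every alternative. Cdkn1a was at -0.13 with median ratios and with TMM, -0.62 with edgeR and with DESeq2, -0.74 to 0.72 with 1 library left out (lowest without baseline replicate 1, highest without baseline replicate 2), -0.80 without the 2 libraries that hold Xist and -0.60 with edgeR on 6 libraries. Umod was at 0.00064 with the Y-linked covariate, -0.20 to 0.14 with 1 library left out (lowest without baseline replicate 3, highest without baseline replicate 1, and 0.07 without 2-day replicate 1) and 0.13 without the 2 libraries that hold Xist. The cause was not tested. Of 142 named genes with a call 71 lost it in at least 1 alternative and 33 when the 2-fold test is left aside, 24 of them without the 2 libraries that hold Xist and 8 under median-ratio scaling. Depth limits genes near a level of 0.005, and 3 pools a group limit small changes.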

Other observations

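Podocyte genes, of the glomerular filter, rose in 2 and fell in 1 of 11 cases. In polyamine metabolism 2 of 10 genes rose and 4 fell, with the spermidine synthase gene Srm (1.36) and the spermine oxidase gene Smox (1.63) higher and the spermine synthase gene Sms (-1.18) lower. Of 20 genes of cholesterol synthesis and uptake 6 fell and 3 rose, with Insig1, a sterol-responsive regulator of the pathway, at -1.52. Fdps, at 3.84, shares exons with another gene. Of 13 heat shock genes 3 rose and 3 fell, with the mitochondrial chaperone gene Hspd1 at -0.90 and Cryab at 0.68. Among 12 genes of androgen-dependent kidney expression 3 fell and 1 rose (median -1.37). Without the 2 libraries that hold Xist 5 fell and 0 rose by limma. Cyp2d9, which shares sequence with related genes, had a log2 fold change of -6.10, and Timd2, an immunoglobulin-domain receptor gene, 3.02, a rise that was lost without baseline replicate 1. Of 7 red blood cell genes 1 rose and 1 fell, and their summed level was 3.30 to 4.57 at baseline and 2.77 to 3.32 at 2 days.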
